A study of Mus musculus with 18 samples.

Results

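The CXC chemokine genes Cxcl1, Cxcl2, Cxcl3, Cxcl9, Cxcl10, Cxcl11 and Cxcl16 were taken by symbol from a table of transcript levels that lists 24411 genes, and all 7 were found. The cells were RAW264.7, a mouse macrophage-like line, and poly(A) RNA was sequenced in 18 libraries that form 6 groups of 3. Cells with a control guide RNA (control) and cells in which Cas9 and a Kdm7a guide RNA had disrupted that gene (knockout) were each kept for 48 h in 1 of 3 conditions. Unstimulated cells are called M0. M1 cells received mouse interferon gamma (IFN-γ) at 2 ng/ml with lipopolysaccharide (LPS) at 0.1 µg/ml. M2 cells received a mixture of human TGF-β1 (2 ng/ml) and mouse IL-4, IL-10 and IL-13 (20 ng/ml). All groups share the cell line, the culture medium and the 48 h duration. The labels describe a single knockout line and do not say whether it is a clone, so differences between the lines that arose apart from Kdm7a cannot be told apart from effects of its loss. They do not state separate cultures either, so p-values reflect library-to-library spread that could be purely technical. Levels are in TPM, a share of a fixed total corrected for transcript length, which keeps no record of sequencing depth. Every mean ± SD has n = 3.

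Chemokines are small secreted proteins that draw leukocytes along a gradient. Cxcl1, Cxcl2 and Cxcl3 encode ligands of the receptor Cxcr2 and recruit neutrophils; macrophages make them soon after Toll-like receptors sense bacterial products, through NF-κB. Cxcl9, Cxcl10 and Cxcl11 encode interferon-inducible ligands of Cxcr3, which recruit activated T cells and natural killer cells. Cxcl16 encodes a membrane-anchored ligand of Cxcr6 that also acts as a scavenger receptor, and proteases of the ADAM family release its soluble form. Kdm7a encodes a demethylase of histone lysines.

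On the GRCm38.p6 build, Cxcl3 (chromosome 5, 90786101 to 90788093), Cxcl1 (90891245 to 90893121) and Cxcl2 (90903899 to 90905938) lie on the plus strand within 119.8 kb, with Cxcl15 between them. Cxcl9 (92321331 to 92328079), Cxcl10 (92346638 to 92348889) and Cxcl11 (92359544 to 92363296) lie on the minus strand of the same chromosome within 42.0 kb. Cxcl16 stands alone on chromosome 11 (70454389 to 70459984, minus strand). RefSeq lists Cxcl11 as a transcribed pseudogene of the reference strain, so its transcript level here does not by itself speak of protein.

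The RefSeq promoter table for this build matched 5 of the 7 genes, Cxcl1, Cxcl2, Cxcl3, Cxcl9 and Cxcl10. The 130 bases before the gene start are shown for the Cxcr2 ligands because a single site recurs in all 3 while their levels differ widely. Capitals mark this site, the 10-base motif GGGAATTTCC with the C that follows it, which forms a second, overlapping match on the other strand. The windows are chr5:90891115-90891244 for Cxcl1, chr5:90903769-90903898 for Cxcl2 and chr5:90785971-90786100 for Cxcl3, each on the plus strand.
Cxcl1: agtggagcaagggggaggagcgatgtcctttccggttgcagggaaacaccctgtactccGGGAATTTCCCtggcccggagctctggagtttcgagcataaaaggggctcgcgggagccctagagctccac
Cxcl2: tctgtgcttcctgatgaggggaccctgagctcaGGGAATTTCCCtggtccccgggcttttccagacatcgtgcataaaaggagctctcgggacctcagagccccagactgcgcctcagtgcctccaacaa
Cxcl3: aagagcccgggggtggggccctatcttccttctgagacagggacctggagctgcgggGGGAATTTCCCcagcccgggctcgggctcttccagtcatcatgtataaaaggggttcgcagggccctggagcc
The 250 bases before Cxcl10 (chr5:92348890-92349139, minus strand) are shown for contrast, with matches to the κB consensus and to an interferon-response motif in capitals.
Cxcl10: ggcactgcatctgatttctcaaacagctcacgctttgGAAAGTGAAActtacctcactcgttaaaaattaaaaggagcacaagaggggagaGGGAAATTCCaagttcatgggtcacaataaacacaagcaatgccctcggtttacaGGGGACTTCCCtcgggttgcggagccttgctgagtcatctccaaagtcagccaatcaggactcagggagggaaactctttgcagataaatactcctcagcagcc

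GGGAATTTCC begins 71 bases before the start of Cxcl1, 97 before that of Cxcl2 and 73 before that of Cxcl3. Among 32851 RefSeq promoter windows of 250 bases, 28 (0.0852%) hold it on either strand. The Cxcl10 window lacks it and holds GGGAAATTCC at 159 bases, the overlapping pair GGGGACTTCC and GGGACTTCCC at 104 and 103 bases, and GAAAGTGAAA at 213 bases before the start. The κB consensus that takes in all of these sites but GAAAGTGAAA occurs in 7.25% of the windows, and the core of the interferon-stimulated response element (GAAA, any 2 bases, GAAA) in 2.98%. The gamma-activated site (TTC, any 3 bases, GAA), present in 7.02% of all windows, matched in none of the 5 members, and Cxcl9 matched none of the 4 motifs searched on both strands. The motifs were chosen with the sequences in view, and a match is a string of letters and not a shown binding site.

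The libraries matched their labels at the targeted gene: Kdm7a stood at 30.3% of the control level in M0, 25.3% in M1 and 29.2% in M2 knockout cells, with log2 fold changes of -1.47, -1.85 and -1.65. A reduced transcript does not measure the remaining protein. Of 10 macrophage markers 9 reached 1 TPM, with summed levels of 4099 to 6401 TPM. Summed T cell markers stayed at or below 0.280 TPM and epithelial markers at or below 1.14 TPM. The B cell, endothelial and neutrophil lists each had a single gene at 1 TPM or more, and their sums reached 21.2, 28.2 and 62.0 TPM. M2 control libraries 1 and 2 carried more transcript of M1 genes than library 3: Nos2, chosen after its values were seen, stood at 2.04, 5.24 and 0.230 TPM in libraries 1, 2 and 3. In M1 knockout library 3, 17 named genes lay more than 1.5 log2 units above both partner libraries, against 0 to 4 in the other libraries. That library held 40.4 TPM of Cxcl12, a CXC chemokine of stromal cells outside the 7 genes, against 0 and 0.0700 TPM in its partners. Summed fibroblast markers reached 3.37 TPM in it and at most 0.930 TPM in any other library.

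**Figure D1:**
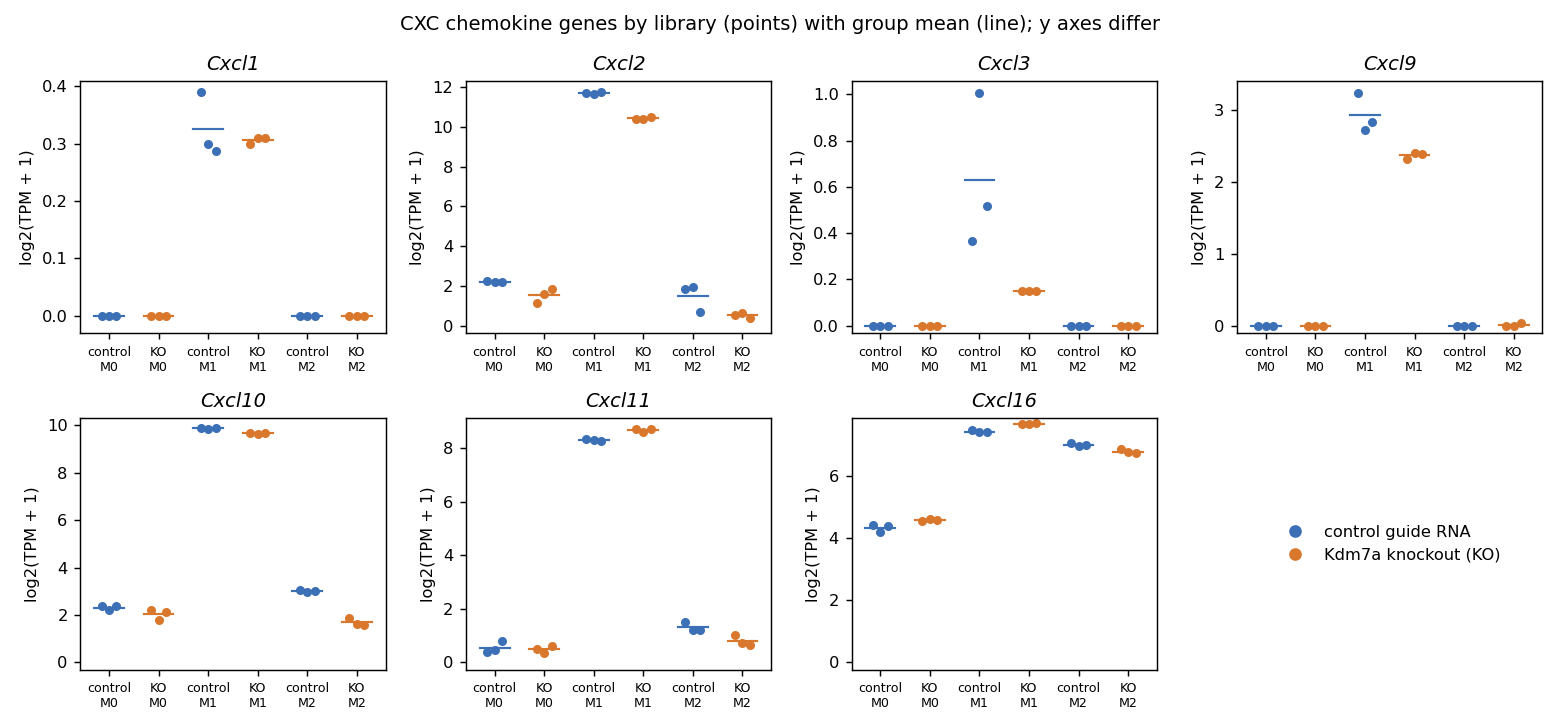
Level of each CXC gene in each of the 18 libraries, as log2(TPM + 1), with a point per library, a line at the group mean, and control cells in blue and knockout cells in orange. Axes differ between panels. Cxcl2, Cxcl9, Cxcl10 and Cxcl11 have their highest 6 values in the M1 libraries, Cxcl16 is also high under M2, and Cxcl1 and Cxcl3 stay near the bottom of the scale.

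M1 stimulation brought Cxcl2 to the highest level of the 7 genes, above Cxcl10, Cxcl11 and Cxcl16 in that order in both genotypes. Cxcl2, the neutrophil chemokine also called MIP-2, stood at 3.75, 3.55 and 3.63 TPM in M0 control cells and at 3325, 3265 and 3420 TPM in M1 control cells. In the knockout it stood at 1.22, 2.01 and 2.64 TPM in M0 and at 1363, 1360 and 1423 TPM in M1. M1 and M0 libraries did not overlap in either genotype, and they are bulk samples, in which fewer cells that make a transcript and less of it per cell cannot be told apart. The ratio of the means was 916 in control and 706 in knockout cells, and on the log2(TPM + 1) scale the change was 9.49 ± 0.257 (SE, limma adjusted p = 1.26e-13) and 8.90 ± 0.257 (adjusted p = 2.53e-13).

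The close relatives of Cxcl2 were nearly absent. Cxcl1, the other main neutrophil attractant of mouse macrophages, was listed at 0.310, 0.230 and 0.220 TPM in M1 control and at 0.230, 0.240 and 0.240 TPM in M1 knockout libraries. Cxcl3 was listed at 0.290, 1.01 and 0.430 TPM in M1 control and at 0.110 TPM in each M1 knockout library. Both were listed at 0 in the other 12 libraries, so neither passed the filter for testing (1 TPM in 3 libraries). The highest value of either gene was thus 1.01 TPM, against 1360 TPM in the M1 library lowest in Cxcl2, while all 3 genes carry GGGAATTTCC shortly before their start. Cxcl2 and Cxcl3 transcripts share 61 runs of 50 bases, 5.75% of those in Cxcl2 and 6.31% of those in Cxcl3, so some Cxcl3 signal may stem from reads of Cxcl2; how shared reads were assigned is not given in the sources used here. No other pair among the 7 genes shares such a run.

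The Cxcr3 ligands reached very different levels under M1. Cxcl10, the ligand also known as IP-10, went from 4.15, 3.58 and 4.21 TPM in M0 control to 956, 931 and 938 TPM in M1 control cells. In knockout cells it went from 3.61, 2.49 and 3.4 TPM to 821, 793 and 822 TPM. These were 237-fold and 256-fold increases of the mean, with log2 changes of 7.57 ± 0.0833 and 7.62 ± 0.0833 (adjusted p = 6.73e-24 and 5.41e-24). Cxcl11, also called I-TAC, went from 0.310, 0.390 and 0.740 TPM to 322, 311 and 308 TPM in control cells, and from 0.410, 0.290 and 0.540 TPM to 414, 388 and 419 TPM in the knockout. Its means rose 654-fold and 984-fold, and the log2 changes were 7.74 ± 0.109 and 8.17 ± 0.109 (adjusted p = 1.81e-22 and 6.68e-23). Cxcl9, also called MIG, was listed at 0 in all M0 libraries and reached 8.48, 5.59 and 6.15 TPM in M1 control and 4.0, 4.29 and 4.24 TPM in M1 knockout cells. Its M1 mean in control cells was 6.74 ± 1.53 TPM, while that of its chromosomal neighbour Cxcl10 was 942 ± 13.2 TPM. No fold is given for Cxcl9 because its M0 groups are at 0 (adjusted p = 3.10e-16 in control and 1.06e-14 in knockout cells).

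Cxcl16 started higher and rose less. It stood at 20.3, 17.5 and 19.9 TPM in M0 control and at 176, 170 and 170 TPM in M1 control cells. In the knockout it stood at 22.5, 23.5 and 22.8 TPM in M0 and at 205, 205 and 208 TPM in M1. The mean rose 8.94-fold in control and 8.98-fold in knockout cells, by 3.10 ± 0.0462 and 3.11 ± 0.0462 log2 units (adjusted p = 2.07e-22 and 1.63e-22). Cxcl2, Cxcl9, Cxcl10, Cxcl11 and Cxcl16, the 5 of 7 genes that passed the filter, were all called higher in M1 than in M0 of each genotype. Cxcl9 passed the filter through the M1 groups alone, so Cxcl9 had to differ. Cxcl11 would also have passed through the M2 control libraries, at 1.87, 1.33 and 1.32 TPM, while its M0 libraries were below 1 TPM. Of all 11548 tested genes, 89.1% were called in control and 90.3% in knockout cells, and 32.2% and 32% were called higher, 56.9% and 58.4% lower. Over those genes the median log2 change was -0.38 in control and -0.43 in knockout cells, so the rises stand out in size, not in being called.

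The mixture of CXC transcripts changed with the stimulus. The summed level of the 7 genes was 27.3 ± 1.98 TPM in M0 control, 4772 ± 81.3 TPM in M1 control and 139 ± 4.38 TPM in M2 control cells. In the knockout it was 28.5 ± 0.817, 2811 ± 62.6 and 113 ± 5.91 TPM. Cxcl16 made up 70.3 ± 0.759% of the sum in M0 control and 92.4 ± 0.857% in M2 control cells. In M1 control cells Cxcl2 took 69.9 ± 0.621%, Cxcl10 19.7 ± 0.319%, Cxcl11 6.58 ± 0.192% and Cxcl16 3.60 ± 0.0906%.

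**Figure D2:**
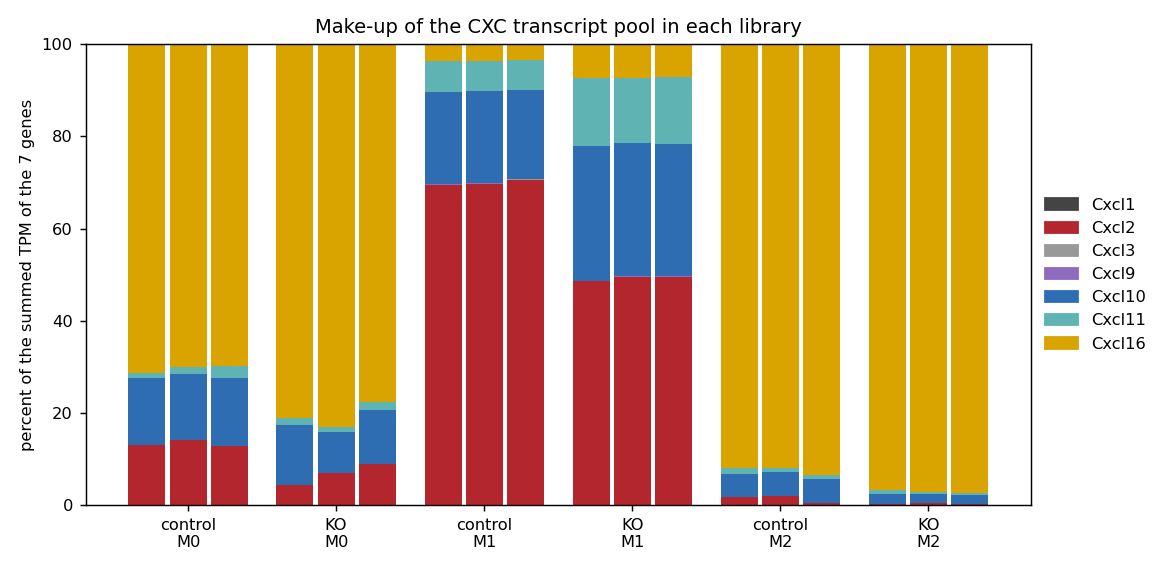
Share of each gene in the summed TPM of the 7 CXC genes, in percent, with a bar for each library grouped by condition and genotype. Cxcl16 (yellow) fills most of the M0 and M2 bars, and Cxcl2 (red) takes 69.9% of the M1 control and 49.2% of the M1 knockout bars on average.

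The M1 knockout libraries held less Cxcl2 and Cxcl9 and more Cxcl11 and Cxcl16 than the M1 control libraries. Cxcl2 stood at 1382 ± 35.3 TPM in the knockout against 3337 ± 78.3 TPM in the control, which is 41.4% of the control level, and no knockout library reached the control range. The log2 fold change was -1.27 ± 0.257 (limma adjusted p = 0.00107). Cxcl9 stood at 62.0% of the control level, 4.18 ± 0.155 against 6.74 ± 1.53 TPM (-0.56 ± 0.104, adjusted p = 0.000161), and its libraries did not overlap either. Cxcl3, tested only when the filter was dropped, changed by -0.48 log2 units (adjusted p = 0.00149), and Cxcl1 by -0.02 (adjusted p = 0.604); both are at levels where an entry may rest on few reads.

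Cxcl11 and Cxcl16 rose in M1 knockout cells. Cxcl11 was 1.30-fold higher, at 407 ± 16.6 against 314 ± 7.44 TPM (0.37 ± 0.109, adjusted p = 0.00794), a call that was lost with a pseudocount of 0.1 TPM (adjusted p = 0.221). Cxcl16 was 1.2-fold higher, at 206 ± 1.63 against 172 ± 3.69 TPM (0.26 ± 0.0462, adjusted p = 0.000112). Cxcl10 stood at 812 ± 16.7 TPM in the knockout, 86.3% of the control level of 942 ± 13.2 TPM. Its libraries did not overlap, but the log2 change of -0.21 (adjusted p = 0.0401) was no longer called when any of the 6 M1 libraries was left out (adjusted p = 0.0687 to 0.105) or when the values were rescaled by trimmed means of M values (TMM, adjusted p = 0.134). Of the 15 alternatives run, 3 kept this call and 12 lost it.

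In M1, 3 genes were thus called lower and 2 higher in the knockout, where 50.3% of all tested genes were called, 33.4% lower and 16.9% higher. Ratios within a library, in which scaling cancels, were compared as well. The ratio of Cxcl2 to Cxcl10 was 3.54 ± 0.0893 in M1 control and 1.70 ± 0.0374 in M1 knockout libraries. The ratio of Cxcl11 to Cxcl10 was 0.333 ± 0.00442 and 0.50 ± 0.0105, and that of Cxcl16 to Cxcl10 was 0.183 ± 0.00172 and 0.254 ± 0.00503. None of these ratios overlapped between genotypes, and the exact two-sided permutation test gave p = 0.1 for each, the smallest that 3 against 3 libraries allow. In the pool of M1 knockout cells Cxcl2 fell to 49.2 ± 0.523% of the summed level, with Cxcl10 at 28.9%, Cxcl11 at 14.5% and Cxcl16 at 7.32%.

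Leaving out M1 knockout library 3, which held the Cxcl12 transcript, left Cxcl2 at -1.29, Cxcl9 at -0.57, Cxcl11 at 0.35 and Cxcl16 at 0.25 log2 units, each still called. S100a8, a calcium-binding protein gene typical of neutrophils and the only gene of the neutrophil list at 1 TPM or more, stood at 56.9 ± 4.66 TPM in M1 control and 11.4 ± 1.35 TPM in M1 knockout cells. The summed neutrophil list ranged from 52.9 to 62.0 TPM and from 10.1 to 12.7 TPM in these groups, with S100a9 listed at 0 in all of these libraries and Elane and Mpo at 0 in the M1 control. Its part in the lower Cxcl2 was not tested.

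**Figure D3:**
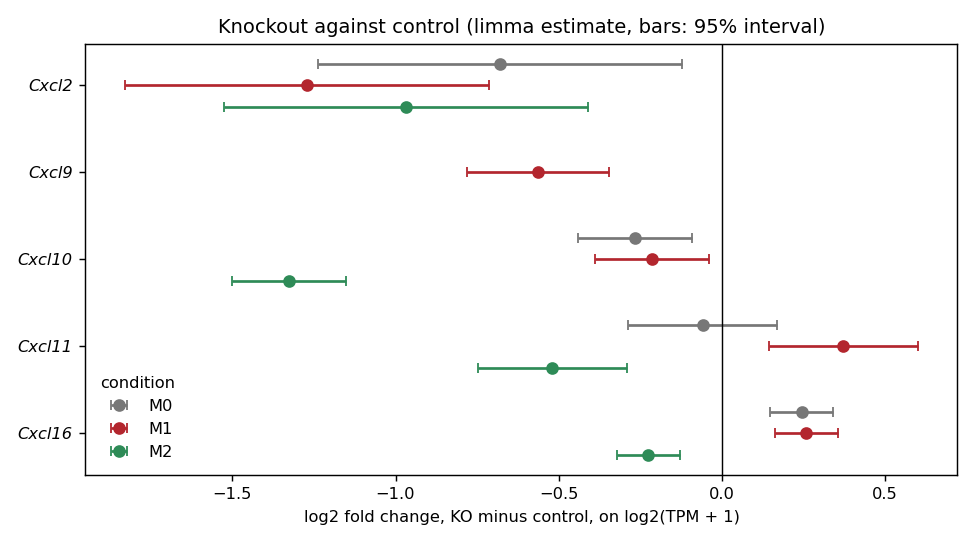
Log2 fold change of knockout against control for 5 CXC genes on the log2(TPM + 1) scale, with M0 in grey, M1 in red and M2 in green, and bars for unadjusted 95% intervals of the limma estimate. Cxcl2 lies left of 0 in each condition, Cxcl10 lies farthest left in M2 at -1.33, and Cxcl11 and Cxcl16 lie right of 0 in M1 and left of it in M2. Cxcl9 is drawn for M1 only, since its other groups are at or near 0.

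The response to M1 itself differed between the genotypes for Cxcl9 and Cxcl11. The knockout response minus the control response was -0.56 ± 0.148 log2 units for Cxcl9 (limma adjusted p = 0.00560) and 0.43 ± 0.154 for Cxcl11 (adjusted p = 0.0354). With a pseudocount of 0.1 TPM neither was called (adjusted p = 0.165 and 0.278), and Cxcl11 lost its call without any of 7 of the 12 libraries compared (M0 control 3, M1 control 2 or 3, M0 knockout 1 or 2, M1 knockout 1 or 3; adjusted p = 0.0582 to 0.106). For Cxcl2 the difference was -0.59 ± 0.363 (adjusted p = 0.232), and it was called when the fit held only the 4 groups compared (adjusted p = 0.0346). For Cxcl10 and Cxcl16 it was 0.05 and 0.01 (adjusted p = 0.768 and 0.891). Over all tested genes 36% were called in this comparison, 23.9% lower and 12.1% higher, against 1 of the CXC genes in each direction.

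Under M2 conditions Cxcl16 rose in both genotypes and was the most abundant of the 7 genes. Its M2 levels were 132, 125 and 128 TPM with the control guide and 116, 108 and 105 TPM in the knockout, above every M0 library. The mean was 6.68-fold higher than M0 in control and 4.79-fold higher in knockout cells, with log2 changes of 2.68 ± 0.0462 and 2.21 ± 0.0462 (adjusted p = 3.66e-20 and 5.18e-19). M2 knockout cells stood at 85.5% of the M2 control level (-0.23 ± 0.0462, adjusted p = 0.000984), the opposite side to M0 and M1, where the knockout was higher. The M2 response was 0.47 log2 units smaller in the knockout (-0.47 ± 0.0654, adjusted p = 4.91e-05).

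Cxcl10 responded to M2 conditions in opposite directions. In control cells it went from 4.15, 3.58 and 4.21 TPM in M0 to 7.22, 6.91 and 7.16 TPM in M2, a 1.78-fold rise without overlap (0.70 ± 0.0833, adjusted p = 4.78e-07). In knockout cells it went from 3.61, 2.49 and 3.4 TPM to 2.62, 2.08 and 2.01 TPM (-0.36 ± 0.0833, adjusted p = 0.000764), and here the M0 and M2 libraries overlapped. The difference between the responses was -1.06 ± 0.118 log2 units (adjusted p = 4.15e-06), and it was called under all 21 alternatives run, with adjusted p from 7.18e-08 to 0.000511. M2 knockout cells kept 31.5% of the M2 control level (-1.33 ± 0.0833, adjusted p = 4.96e-10). These levels are below 1% of those in M1.

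Cxcl11 was low under M2, at 1.87, 1.33 and 1.32 TPM in the control libraries and at 1.03, 0.640 and 0.580 TPM in those of the knockout. The control libraries lay above all M0 control libraries (0.76 ± 0.109, adjusted p = 5.05e-06). In knockout cells the change was 0.30 (adjusted p = 0.0181), which was no longer called without M0 knockout library 2 or M2 knockout library 1 (adjusted p = 0.0851 and 0.127). Cxcl11 in M2 knockout cells was at 49.8% of the M2 control level (-0.52 ± 0.109, adjusted p = 0.00123). The difference in response was -0.46 ± 0.154 (adjusted p = 0.0533), so it was not called; it was called under 6 of 21 alternatives, 4 of which left out a single library (M0 control 3, M2 control 3, M0 knockout 2 or M2 knockout 1; adjusted p = 0.0117 to 0.0488). Cxcl9 was listed at 0 in every M2 library except 1 knockout library at 0.0300 TPM.

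Cxcl2 was at most 2.83 TPM under M2. The control libraries stood at 2.55, 2.83 and 0.640 TPM. Those of the knockout stood at 0.460, 0.580 and 0.290 TPM. All M2 libraries lay below all M0 libraries of their genotype, with log2 changes of -0.72 ± 0.257 (adjusted p = 0.0251) in control and -1.01 ± 0.257 (adjusted p = 0.00315) in knockout cells. The control call was lost without any of the 3 M0 control libraries (adjusted p = 0.0504 to 0.0599), and the value was -0.33 without M2 control library 3. M2 knockout cells were at 22.1% of M2 control cells (-0.97 ± 0.257, adjusted p = 0.0122). In control libraries 1, 2 and 3 the level of Cxcl2 was 0.0764, 0.0848 and 0.0192% of its M1 mean. The levels of Il6, an M1 cytokine gene chosen after its values were seen, were 0.101, 0.0942 and 0.00581% of its own M1 mean, and those of Nos2 0.0571, 0.147 and 0.00644%.

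Cxcl2 was thus high in the same M2 control libraries as those M1 genes, and the part of M1 transcripts in its M2 value was not tested. Without M2 control libraries 1 and 2 and M1 knockout library 3, an alternative chosen after seeing the data, the knockout change of Cxcl2 in M2 was -0.19 (adjusted p = 0.566). In that fit the lone M2 control library is assumed to vary like the other groups. Leaving out only library 1 or only library 2 gave -0.80 and -0.75, no longer called (adjusted p = 0.0553 and 0.0542), and leaving out only library 3 gave -1.36 (adjusted p = 4.06e-06). For Cxcl10, libraries 1, 2 and 3 stood at 0.767, 0.734 and 0.760% of its M1 mean. Without M2 control libraries 1 and 2 and M1 knockout library 3 its knockout change in M2 was -1.34. The part of M1 transcripts in its M2 value was not tested either. Cxcl11 changed by -0.42 in the same fit (adjusted p = 0.0804) and Cxcl16 by -0.22 (adjusted p = 0.0427).

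**Figure D4:**
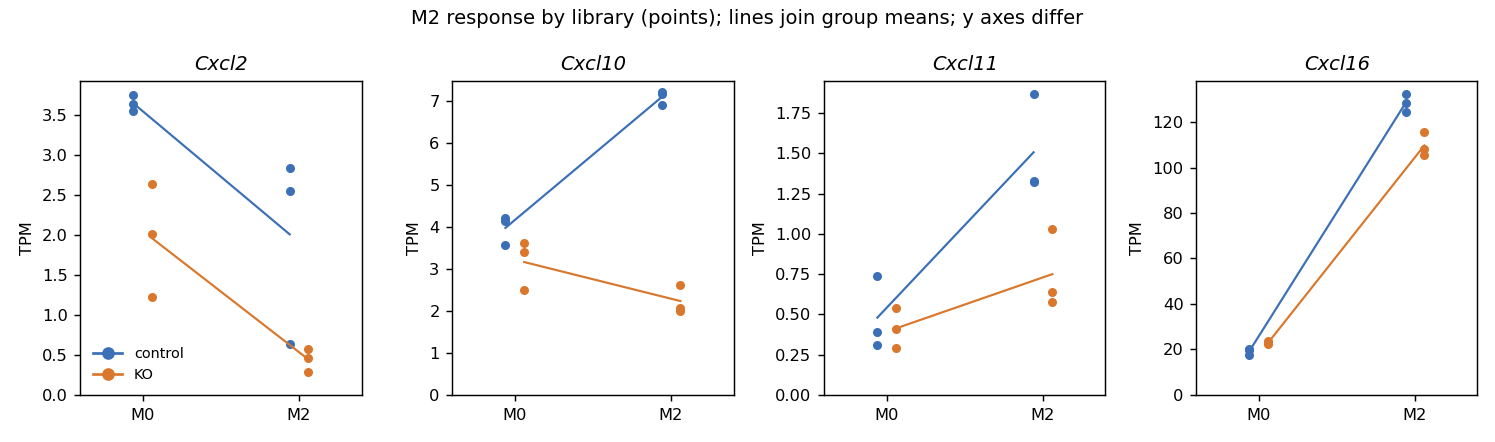
Level in TPM of Cxcl2, Cxcl10, Cxcl11 and Cxcl16 in each M0 and M2 library (points), with lines that join the group means, control cells in blue and knockout cells in orange; axes differ between panels. The Cxcl10 lines run in opposite directions, up to 7.10 TPM in control and down to 2.24 TPM in knockout cells, while both Cxcl16 lines rise.

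By count, 3 CXC genes were called higher and 1 lower in M2 than in M0 control cells, where 65.4% of all tested genes were called (28.4% higher, 37% lower). In knockout cells 2 were called higher and 2 lower, where 72.9% were called (29.6% higher, 43.2% lower). Cxcl2, Cxcl10, Cxcl11 and Cxcl16 were called lower in M2 knockout than in M2 control cells and none was called higher, where 30.9% of tested genes were called and 18.3% were called lower. The M2 response was called different for Cxcl10 and Cxcl16, both lower in the knockout, against 14.1% of all tested genes (7.05% lower, 7.06% higher). These comparisons share M0 or M2 libraries and are not separate pieces of evidence.

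Without stimulation the knockout held slightly more Cxcl16. Its level was 22.9 ± 0.523 TPM in knockout and 19.2 ± 1.49 TPM in control cells, a 1.19-fold difference without overlap (0.24 ± 0.0462, limma adjusted p = 0.000695). Cxcl10 was at 79.6% of the control level (-0.27 ± 0.0833, adjusted p = 0.0307), with overlapping libraries and no call once M0 control library 1 or 3 or M0 knockout library 2 was left out (adjusted p = 0.0965, 0.117 and 0.183). Cxcl2 was at 53.7% of the control level without overlap (-0.68 ± 0.257, adjusted p = 0.0858), which was called when only these 6 libraries were fitted (adjusted p = 0.0103). Cxcl11 changed by -0.06 (adjusted p = 0.772). Of all tested genes 19.2% were called in M0, 8.86% higher and 10.3% lower, against 1 CXC gene in each direction.

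Set against M2, M1 levels were higher for each of Cxcl2, Cxcl9, Cxcl10, Cxcl11 and Cxcl16 in both genotypes (5 called higher, against 30.3% of tested genes called higher in each genotype, 59% and 59.9% lower, and 89.4% and 90.2% called in either direction). Cxcl9 was at or near 0 in M2 and passed the filter through M1 alone, so its call here was fixed by the filter, and nothing is read from the count of 5. The difference was smallest for Cxcl16, 1.34-fold in control (0.42 ± 0.0462, adjusted p = 4.30e-08) and 1.88-fold in knockout cells (0.90 ± 0.0462, adjusted p = 1.56e-13). It was 0.89 and 1.4 with TMM factors, over a median of -0.42 and -0.45 for all tested genes without them. Cxcl2 and Cxcl10 were highest in M1 control, next in M1 knockout. Cxcl11 and Cxcl16 were highest in M1 knockout, next in M1 control. Further down, the order of Cxcl16 was M2 control, M2 knockout, M0 knockout and M0 control, with no overlap between neighbours. For Cxcl10 the M0 control, M0 knockout and M2 knockout groups overlapped from neighbour to neighbour, as did M2 control and M0 knockout for Cxcl2, and M2 knockout, M0 control and M0 knockout for Cxcl11.

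Genes with the most similar course over the 6 group means were found by the root mean square difference of centred log2(TPM + 1) values among 9744 candidates. For Cxcl2 they were Cmpk2, a mitochondrial nucleotide kinase gene (0.533), and Csf3, which encodes the granulocyte growth factor G-CSF (0.541). Cmpk2 stood at 1693 TPM in M1 control and 1679 TPM in M1 knockout cells, and Csf3 at 1521 and 614.8 TPM. A similar course over the 6 groups thus does not by itself mean a shared knockout difference. For Cxcl9 they were Nts (0.0640), which encodes the peptide neurotensin, and Dusp16 (0.0699), a phosphatase of MAP kinases. Pyhin1, an interferon-inducible gene, and Ccrl2, an atypical chemokine receptor gene, were nearest to both Cxcl10 (0.338 and 0.368) and Cxcl11 (0.291 and 0.255). Ccrl2 was 567 TPM in M1 control and 686 TPM in M1 knockout cells, in the same order as Cxcl11 and the opposite order to Cxcl10. Pyhin1 was 340 and 262 TPM, in the same order as Cxcl10 and the opposite order to Cxcl11. For Cxcl16 they were Tspo (0.204), which encodes a protein of the outer mitochondrial membrane, and Slc41a2 (0.206), a magnesium transporter gene. Both had higher means in M1 knockout than in M1 control cells, like Cxcl16. Unlike Cxcl16, both had lower means in M0 knockout and higher means in M2 knockout than in control cells. In M2 Tspo was at 553 against 489 TPM and Slc41a2 at 29.9 against 25.7 TPM.

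The receptors of these ligands were barely present in the same cells. Cxcr2 was listed at no more than 0.0400 TPM in any library, Cxcr1 at 0 in all, Cxcr6 at no more than 0.390 TPM and Cxcr3 at no more than 1.77 TPM. Of 8 CXC receptor genes, 3 (Cxcr3, Cxcr4 and Cxcr5) could be tested. Cxcr4, the receptor of Cxcl12, went from 3.11 ± 0.132 TPM in M0 control to 66.0 ± 1.16 TPM in M2 control cells (4.03 ± 0.105, adjusted p = 5.02e-17) and from 12.2 ± 1.41 to 78.1 ± 1.41 TPM in the knockout (2.59 ± 0.105, adjusted p = 3.74e-14). It was higher in M0 knockout than in M0 control cells (1.68 ± 0.105, adjusted p = 5.89e-10). Cxcr5, a receptor for the B cell chemokine Cxcl13, rose from 1.32 ± 0.177 to 5.37 ± 0.590 TPM with M1 in control cells (1.45 ± 0.0893, adjusted p = 3.29e-12). Of the 8 other CXC ligand genes looked up, only Cxcl14 could be tested. Cxcl14 rose from 2.59 ± 0.329 TPM in M0 control to 8.12 ± 0.410 TPM in M2 control cells (1.35 ± 0.170, adjusted p = 1.71e-06). In knockout cells it rose over their own M0 level by 1.24 ± 0.170 log2 units (adjusted p = 3.82e-06), to 13.0 ± 0.527 TPM in M2. It was already higher in M0 knockout than in M0 control cells (0.73 ± 0.170, adjusted p = 0.00483). The difference in its M2 response was -0.11 ± 0.240 (adjusted p = 0.813) and was not called.

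Most genes of a list for IFN-γ signalling, which holds inhibitors of the pathway as well as its carriers, rose with the Cxcr3 ligands under M1. Of 11 listed genes, 9 were called higher and 1 lower in M1 than in M0 control cells, with a median log2 change of 3.23, where 32.2% of all tested genes were higher and 56.9% lower with a median of -0.38. Irf1, a transcription factor of the interferon response, went from 18.2 ± 1.66 to 763 ± 15.2 TPM (5.32 ± 0.0557, adjusted p = 1.21e-24). In M1 knockout against M1 control cells, 9 of the 11 were called higher and 0 lower, with a median of 0.18. Socs1, which encodes an inhibitor, was among those called higher in both comparisons (4.94 and 0.25 log2 units). These counts are thus not a measure of signal strength. Over all tested genes 16.9% were called higher and 33.4% lower, with a median of -0.06. Irf8, a factor of the myeloid lineage, was at 835 ± 11.4 against 634 ± 4.82 TPM (0.40 ± 0.0413, adjusted p = 1.57e-07), and Irf1 at 886 ± 5.84 against 763 ± 15.2 TPM (0.22 ± 0.0557, adjusted p = 0.00312). Irf1 and Irf8 were thus higher in M1 knockout cells, like Cxcl11 and unlike Cxcl9. In M2 knockout against M2 control cells 5 were called higher and 2 lower (12.7% and 18.3% of all tested genes), and Irf1 was at -0.13 (adjusted p = 0.0890).

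Genes of Toll-like receptor 4 and NF-κB signalling moved in both directions in the M1 knockout cells, where Cxcl2 was lower. Of 21 genes, 17 were called higher and 4 lower in M1 than in M0 control cells (32.2% and 56.9% of all tested genes). In M1 knockout against M1 control cells 5 were called higher and 5 lower (9 and 2 with TMM or median-ratio factors), with a median of 0.04. The shares over all tested genes were 16.9% higher and 33.4% lower without these factors, and their median was -0.06. With TMM factors 2731 of 11553 tested genes were called higher and 3185 lower. With median-ratio factors these were 2751 and 3131 of 11546. Tlr4, the LPS receptor gene, was at 21.4 ± 0.941 TPM in knockout and 30.7 ± 1.22 TPM in control cells (-0.51 ± 0.0493, adjusted p = 6.54e-08). Nfkbiz, which encodes a nuclear cofactor of NF-κB, was at 179 ± 0.802 and 215 ± 1.94 TPM (-0.26 ± 0.0966, adjusted p = 0.0314). Nfkbia, which encodes the inhibitor IκBα, was higher in the knockout (0.38 ± 0.0353, adjusted p = 3.82e-08). The others called higher were the NF-κB subunit genes Nfkb1 (0.27), Nfkb2 (0.31) and Rel (0.31) and the LPS coreceptor gene Cd14 (0.14). The others called lower were Irak4 (-0.33), Tirap (-0.16) and Myd88 (-0.13). In M2, 8 of the 21 were called higher and 1 lower in the knockout, against 12.7% and 18.3% of all tested genes. With TMM factors 11 and 1 of the list were called, against 1947 higher and 1520 lower of 11553 tested genes. Among the 8 listed genes higher was Cd14, at 291 ± 16.4 against 184 ± 1.01 TPM (0.66 ± 0.0322, adjusted p = 8.44e-12).

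Transcripts of the Cxcr2 ligands carry many copies of ATTTA, the core of the AU-rich element through which tristetraprolin and related proteins shorten mRNA life. In the GENCODE vM21 annotation, the 3′ untranslated region of Cxcl2 holds 11 copies, 14.9 per kb, and 0.237% of 19422 genes have this density or more. Cxcl1 holds 7 (11.8 per kb, 0.520%) and Cxcl3 holds 5 (7.72 per kb, 2.33%), against a median of 1.32 per kb. Cxcl10 holds 2 (2.73 per kb), Cxcl16 2 (1.4 per kb), Cxcl9 3 (1.22 per kb) and Cxcl11 1 (0.819 per kb). The longest run of ATTTA copies in each Cxcr2 ligand is shown in capitals to place the 3 genes side by side.
Cxcl2: ctatgtATTTATTTATTTAttaatt
Cxcl1: ggtcctATTTATTTAtgtatt
Cxcl3: catcttATTTAatgttt

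Of 7 genes for proteins that bind or cut such transcripts, 2 were called higher and 5 lower in M1 than in M0 control cells, near the shares over all tested genes (32.2% and 56.9%). Zfp36, which encodes tristetraprolin, rose from 44.1 ± 2.19 to 1136 ± 31.4 TPM (4.66 ± 0.0410, adjusted p = 1.48e-25), and was at 1259 ± 29.6 TPM in M1 knockout cells (0.15 against control, adjusted p = 0.00537). Zc3h12a, which encodes the ribonuclease Regnase-1, was at 104 TPM in M1 control and 93.3 TPM in M1 knockout cells (-0.15, adjusted p = 0.0355), and Zfp36l2, a relative of Zfp36, at 26.7 ± 1.76 and 17.8 ± 1.44 TPM (-0.56 ± 0.0643, adjusted p = 6.39e-07). Over the list, 2 were called higher and 2 lower in the M1 knockout, against 16.9% and 33.4% of all tested genes. With TMM factors these were 2 and 1, against 2731 higher and 3185 lower of 11553 tested genes. mRNA decay was not measured.

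Of 6 genes for proteases that process chemokines, 3 could be tested. Adam10 and Adam17 encode proteases of the family that releases Cxcl16 from the membrane. Adam10 fell from 85.9 ± 3.82 TPM in M0 control to 44.1 ± 0.135 TPM in M1 control cells (-0.94 ± 0.0467, adjusted p = 8.39e-14) and rose to 315 ± 4.71 TPM in M2 control cells (1.86 ± 0.0467, adjusted p = 1.24e-17). In M1 and M2 knockout cells Adam10 stood at 47.6 and 325 TPM and was not called against control. Adam17 was at 145 ± 2.13 TPM in M1 knockout against 125 ± 2.38 TPM in M1 control cells (0.20 ± 0.0348, adjusted p = 6.25e-05) and at 98.9 ± 4.62 against 82.5 ± 0.251 TPM in M2 (0.26 ± 0.0348, adjusted p = 1.22e-05). Cxcl16 transcript was thus high both where Adam10 was low, in M1, and where it was high, in M2. Protein release was not measured.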

How the data were processed

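Poly(A) RNA of 18 RAW264.7 libraries was sequenced after NEBNext Ultra II library preparation, per the labels' protocols. The values the authors deposited are TPM per gene symbol, with column totals of 999999 to 1000000. Per the submitters' processing notes, reads were trimmed with Trim Galore and the build was mm10; the sources used here name neither aligner nor quantification tool nor annotation. TPM keeps no depth, so no counting interval was computed, and an entry of 0 may be a failed estimate.

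Libraries were grouped by their titles. Genes that reached 1 TPM in 3 or more libraries (11548) were fitted with limma 3.58.1 (R 4.3.3; trend, robust) on log2(TPM + 1), with 6 group means and 11 contrasts. Calls were two-sided at a Benjamini-Hochberg adjusted p below 0.05 over all tested genes. Fold changes on this scale understate changes of low genes, and ratios of means are given beside them. The comparisons within a genotype share their M0 libraries. Alternatives were TMM and median-ratio factors, a fit without the trend, without a filter or with one at 5 TPM, a pseudocount of 0.1 TPM, only the groups compared, a replicate block and each library left out. The 7 genes and the gene lists were chosen with earlier results of these data known. The text names the 7 genes and Kdm7a; from each pathway list, genes among the 3 called with the largest changes at 5 TPM or more, and Irf1, Tlr4, Nfkbiz, Zfp36, Adam10, Adam17, Cxcr2, Cxcr3 and Cxcr4; and 2 nearest genes per tested member. Not every gene that this rule selects is reported here, and which ones are was decided after their values were seen. Genes outside this rule (Nos2, Il6, Cxcl12, S100a8, Cxcr1, Cxcr6) were chosen after their values were seen. All genes of the Toll-like receptor 4 and NF-κB list called in M1 knockout against control cells are also named. This was decided after their values were seen. Sequences came from RefSeq (GRCm38.p6) and GENCODE vM21 transcripts.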

Additional observations from a re-analysis of the deposited data

Results flagged for a closer look

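The response to a stimulus differed between knockout and control cells, by limma's test of the difference itself, for 4 of the CXC genes. Of all tested genes, 36% were called in this way for the M1 response and 14.1% for the M2 response. For Cxcl10 the M2 response in the knockout minus that in the control was -1.06 log2 units, with a rise in control and a fall in knockout cells. For Cxcl16 the difference in the M2 response was -0.47, a smaller rise in the knockout. In the M1 response the difference was -0.56 for Cxcl9 and 0.43 for Cxcl11. Neither was called with a pseudocount of 0.1 TPM (limma adjusted p = 0.165 and 0.278). Cxcl11 lost its call under 10 of 21 alternatives and Cxcl9 under 1 of 21. The difference for Cxcl9 rests on M1 values alone, since its M0 libraries are all listed at 0.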

How the results depend on the processing

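Depth is unknown in these data, which limits what can be said of Cxcl1, Cxcl3, Cxcl9 and of the M0 and M2 values of Cxcl2, Cxcl10 and Cxcl11, none of which exceeds 8.48 TPM. No result on a CXC gene changed sign while called. Of 877 values of single genes under the alternatives, 826 stayed on the same side of the threshold, 40 lost a call and 11 gained one.

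Numbers of CXC genes called moved as follows. For knockout against control in M0, 2 in the report, it was 1 without the filter and 1 to 2 with single libraries left out. For knockout against control in M1, 5 in the report, it was 3 with a pseudocount of 0.1 TPM and 4 in every fit with a single library left out and with TMM or median-ratio factors. For knockout against control in M2, 4 in the report, it was 2 without M2 control libraries 1 and 2 and M1 knockout library 3 and 3 to 4 with single libraries left out, as for M2 against M0 in each genotype (4 in the report). For the genotype difference in the M1 response, 2 in the report, it was 0 with the pseudocount of 0.1 TPM and 1 to 2 with single libraries left out. For that in the M2 response, 2 in the report, it was 2 to 4 with single libraries left out, the highest without M2 control library 3. The cause of these shifts was not tested.

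The replicate block changed 1 call: Cxcl11 in the genotype difference of the M2 response had an adjusted p of 0.0497 with it and 0.0533 without, for 3 genes called. Deviations of libraries with the same number correlated at -0.159 to 0.150, so not every pair exceeded 0.1, and the labels tie no libraries together by number; the numbers were therefore not taken as pairs. That 11 of 18 libraries correlated best with their own number is a hint of pairing from the data, not from the design.

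Over all genes, the fit without those 3 libraries called 1668 in place of 3570 genes for the knockout in M2 and 818 in place of 1629 for the difference in M2 response. With TMM factors the share of higher calls moved from 36.1% to 53.1% (M1 against M0, control), 35.4% to 52.4% (knockout), 40.7% to 51.4% (M2 against M0, knockout), 33.9% to 50.3% and 33.6% to 49.4% (M1 against M2, control and knockout), 33.6% to 46.2% and 41.0% to 56.2% (knockout in M1 and M2), and 33.6% to 45.6% and 50% to 62.9% (differences in the M1 and M2 responses). The median log2 change of M1 against M0 in control cells moved from -0.38 to 0.08.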
